A study of Mus musculus with 5 samples.

Results

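The transcription factors examined here steer blood stem cells towards the myeloid lineages. They are the C/EBP factors Cebpa, Cebpb, Cebpd and Cebpe, PU.1 (Spi1), Irf8, Gfi1, Runx1, Myb and Erg. Members were all probe sets to which the platform annotation gives exactly 1 symbol equal to one of these names. Of 10 genes, 9 had such a probe set, with 20 probe sets in all, among 18193 genes and 34945 named probe sets of the array. Cebpe, the C/EBP factor of late granulocyte maturation, was not analysed here. Of the 9 measured genes, 3 had 1 probe set (Cebpa, Spi1 and Gfi1), and in the others the probe set with the highest mean over all arrays leads.

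The RNA came from sorted bone marrow cells of C57BL/6 mice, in 2 MSI2-inducible samples and 3 samples of the control, whose label gives rtTA alone. The transactivator rtTA switches on doxycycline-dependent transgenes, and MSI2, a Musashi family member, binds RNA. The labels used here state neither whether the transgene was induced, nor for how long, nor the age of the mice, nor the promoter that drives rtTA, nor whether the MSI2-inducible mice also carry rtTA, nor that the samples of a group are from different mice. The p-values therefore reflect only how far these arrays differ among themselves, part of which may be technical. Each sample label names Kit-positive, Sca1-positive cells low in lineage markers, whereas the series text names Sca1-negative ones. Transcripts of the progenitor receptor Kit measured 8.80 and 9.50 in MSI2-inducible arrays, against 9.19, 9.35 and 9.66 in control arrays, on the log2 intensity scale used throughout. The gene of Sca1 itself was not analysed here.

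C/EBP alpha opens the granulocyte and monocyte programme in progenitors, C/EBP beta takes over in emergency granulopoiesis, and C/EBP delta follows in maturing and inflamed myeloid cells. PU.1 is an ETS factor needed for all myeloid cells, Irf8 favours monocytes and dendritic cells over granulocytes, and Gfi1 is a repressor that favours granulocytes. Runx1 with its partner Cbfb, Myb and the ETS factor Erg maintain stem cells and progenitors.

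The results turn on Irf8, Gfi1 and Runx1, so sequence at their transcription starts is shown, from RefSeq on GRCm38.p6. Promoter windows were at hand for 7 of the 10 genes, 12 windows in all. Letters searched on both strands were the C/EBP motif TTGCNNAA, the RUNX motif TGTGGT, the PU.1 motif GAGGAA, the MYB motif AACGG and the GATA motif AGATAA. Windows ran from 250 bases before each start to 50 after it. The stretch before the second of the annotated Irf8 starts (chr8:120738389-120738638, plus strand) carries 1 MYB motif in capitals, beginning 144 bases before the start. The stretch before the first Gfi1 start (chr5:107725806-107726055, minus strand) has 1 C/EBP motif in capitals. These are the only matches to any of the motifs in the Irf8 and Gfi1 windows, and their starts without a match are not shown. Runx1 is transcribed from a distal and a proximal promoter. Just after the distal start (chr16:92826025-92826054, minus strand) lie 2 RUNX motifs in capitals, read on the opposite strand, and before the proximal start (chr16:92697330-92697579, minus strand) lies 1 PU.1 motif in capitals, also on the opposite strand.
Irf8 second start: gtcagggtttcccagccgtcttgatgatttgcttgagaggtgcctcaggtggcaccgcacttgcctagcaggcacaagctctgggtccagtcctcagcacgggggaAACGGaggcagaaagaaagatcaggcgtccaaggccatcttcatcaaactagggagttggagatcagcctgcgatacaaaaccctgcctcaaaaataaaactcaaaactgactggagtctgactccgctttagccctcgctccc
Gfi1 first start: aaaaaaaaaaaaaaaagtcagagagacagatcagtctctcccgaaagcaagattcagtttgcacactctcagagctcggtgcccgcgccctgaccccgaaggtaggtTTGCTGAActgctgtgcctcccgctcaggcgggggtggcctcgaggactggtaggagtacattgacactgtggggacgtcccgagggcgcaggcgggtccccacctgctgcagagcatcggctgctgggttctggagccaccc
Runx1 distal start: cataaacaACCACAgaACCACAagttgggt
Runx1 proximal start: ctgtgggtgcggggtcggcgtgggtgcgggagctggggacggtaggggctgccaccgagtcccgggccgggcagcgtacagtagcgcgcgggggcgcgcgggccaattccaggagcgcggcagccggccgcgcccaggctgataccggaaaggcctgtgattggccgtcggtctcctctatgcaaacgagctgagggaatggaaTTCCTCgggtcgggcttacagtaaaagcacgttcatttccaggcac
Among all 32851 promoter windows of this length, 10.8% held the C/EBP motif, 16.8% the RUNX motif, 28.3% the PU.1 motif, 17.4% the MYB motif and 11.2% the GATA motif. The C/EBP motif was in 3 of the 12 windows of the factors, in Gfi1 and Erg. The MYB motif was in 4 windows, of Cebpa, Cebpb, Erg and Irf8, the GATA motif in 1, of Erg, and the RUNX and PU.1 motifs in 1 each. A match is a run of letters and not a binding site.

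The comparison asks whether these factors differed between MSI2-inducible and control cells, in a study whose title concerns normal blood formation and leukaemia. Of the 9 measured factors, 0 passed limma's test at an adjusted p of 0.05, where 0.0220% of all genes passed. At an unadjusted p under 0.05 there were also 0, against 5.64% of all genes. Adjusted p lay between 0.899 and 0.995. Differences, MSI2-inducible minus control on the log2 scale, were above 0 for 7 factors and below 0 for 2, with a median of 0.18, where the median of all genes was 0.00. The median of the factors rested on single arrays: it was 0.03 without MSI2-inducible replicate 1, 0.51 without replicate 2, and 0.27, 0.07 and 0.08 without control replicates 1, 2 and 3. Irf8 was the 1 factor with both MSI2-inducible arrays above every control array (9.27% of all genes), and Gfi1 the 1 factor with both below (9.39% of all genes). These 2 of 9 compare with 18.7% of all genes whose groups did not overlap in either direction. With so few arrays the intervals are wide, and a value that misses the test does not show that the groups were alike. In RNA pooled from many sorted cells, fewer cells of a type and less RNA per cell cannot be told apart.

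**Figure D1:**
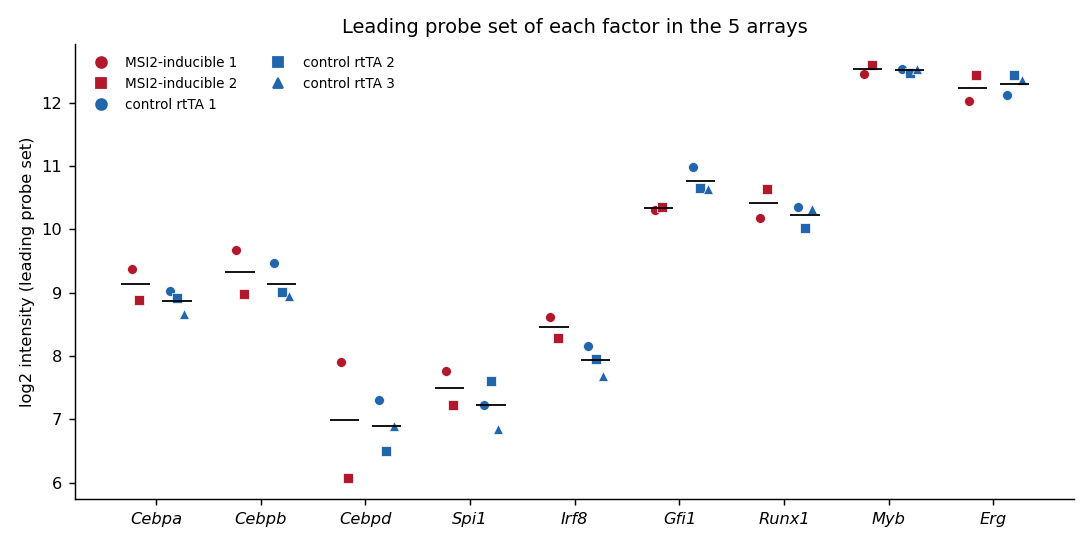
Log2 intensity of the leading probe set of each factor (y axis) in the 2 MSI2-inducible arrays (red) and the 3 control rtTA arrays (blue); marker shapes give the replicate number and black lines the group means. Irf8 is above all controls in both MSI2-inducible arrays, Gfi1 below all of them, and Cebpd spans 1.83 between the MSI2-inducible arrays. Heights of different probe sets are not comparable.

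Irf8 measured 8.61 and 8.29 in MSI2-inducible arrays, against 8.16, 7.95 and 7.69 in control arrays. The groups did not overlap, although MSI2-inducible replicate 2 and control replicate 1 lay close together. The means were 8.45 ± 0.23 (SD, n = 2) and 7.93 ± 0.23 (SD, n = 3), a difference of 0.52 (SE 0.22, 95% interval -0.02 to 1.05, limma adjusted p 0.899). The second Irf8 probe set, 1448452_at, separated the groups further. It measured 8.62 and 8.38 in MSI2-inducible arrays, against 7.49, 7.72 and 7.25 in control arrays. Its difference was 1.02 (SE 0.22, 95% interval 0.48 to 1.55), a 2.02-fold higher level. It was the 1 probe set of the 20 with an unadjusted p under 0.05 (5.68% of all probe sets), at 0.00392, and its limma adjusted p over 45037 probe sets was 0.584. Both Irf8 probe sets thus ran the same way, and neither passed.

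Gfi1 measured 10.31 and 10.35 in MSI2-inducible arrays, against 10.98, 10.66 and 10.64 in control arrays. Both MSI2-inducible arrays lay below every control array and close to each other. The means were 10.33 ± 0.03 (SD, n = 2) and 10.76 ± 0.19 (SD, n = 3), a difference of -0.43 (SE 0.19, 95% interval -0.89 to 0.03, limma adjusted p 0.903). Its erythroid and megakaryocytic relative Gfi1b overlapped between the groups, with 8.58 and 8.24 in MSI2-inducible arrays, against 8.17, 7.82 and 8.56 in control arrays.

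PU.1 (Spi1) measured 7.77 and 7.23 in MSI2-inducible arrays, against 7.22, 7.60 and 6.85 in control arrays. Control replicate 2 stood between the MSI2-inducible arrays, so the groups overlapped, with a difference of 0.27 (SE 0.29, 95% interval -0.45 to 0.99, limma adjusted p 0.947). Its lymphoid relative Spib differed by 0.14, and Irf4, the relative of Irf8 in lymphocytes and dendritic cells, by 0.36. Both had values under 5.57, the median of all probe sets, in every array, and sizes of differences that low are uncertain.

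The C/EBP factors had wider spread between the MSI2-inducible arrays than between the groups. Cebpa measured 9.38 and 8.89 in MSI2-inducible arrays, against 9.02, 8.91 and 8.67 in control arrays. Replicate 1 of the MSI2-inducible samples was the highest of all arrays, and replicate 2 lay within the controls. The difference was 0.27 (SE 0.22, 95% interval -0.28 to 0.82, limma adjusted p 0.928). Cebpb measured 9.67 and 8.98 in MSI2-inducible arrays, against 9.47, 9.01 and 8.94 in control arrays. It had the same order of arrays as Cebpa, a difference of 0.18 (SE 0.29, 95% interval -0.52 to 0.89, limma adjusted p 0.966) and a second probe set that also differed by 0.18.

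Cebpd measured 7.91 and 6.07 in MSI2-inducible arrays, against 7.31, 6.50 and 6.90 in control arrays. The MSI2-inducible samples were the highest and the lowest of all arrays, 1.83 apart, and 1.52% of genes had a larger absolute gap between these 2 arrays. The group difference was 0.08 (SE 0.55, 95% interval -1.28 to 1.45, limma adjusted p 0.994). The second Cebpd probe set put the 5 arrays in the same order, with 6.86 and 5.44 in MSI2-inducible arrays, against 6.45, 5.67 and 5.86 in control arrays. Genes most like Cebpd were Nucb2, a calcium-binding protein, Sowahc and the purine-degrading oxidase Xdh. Their root mean square distances were 0.08, 0.10 and 0.11 log2 units between values centred on each gene's mean over 5 arrays. They were picked as nearest among all genes over only 5 arrays, and their closeness was not tested. Outside MSI2-inducible replicate 1, every Sowahc and Xdh value was under 5.57, the median of all probe sets. Cebpd was the 1 factor whose leading probe set spanned over 1 log2 unit, so it alone was searched for like genes.

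Runx1 measured 10.18 and 10.64 in MSI2-inducible arrays, against 10.35, 10.02 and 10.32 in control arrays, by its leading probe set. The groups overlapped, with a difference of 0.18 (SE 0.22, 95% interval -0.37 to 0.73, limma adjusted p 0.953). Its 6 probe sets did not run one way. Probe set 1452530_a_at measured 7.82 and 7.21 in MSI2-inducible arrays, against 6.92, 6.41 and 7.03 in control arrays, a difference of 0.73 (95% interval 0.00 to 1.46). Probe set 1427650_a_at measured 8.04 and 7.72 in MSI2-inducible arrays, against 7.54, 7.55 and 7.31 in control arrays, a difference of 0.41. Both thus had MSI2-inducible arrays above all controls. Probe set 1440878_at had them below all controls, with 8.37 and 8.15 in MSI2-inducible arrays, against 8.52, 8.94 and 8.70 in control arrays, a difference of -0.46 (95% interval -0.98 to 0.05). The other two differed by -0.01 and -0.45 and overlapped. Limma adjusted p over all probe sets lay at 0.871 for 1452530_a_at, 0.887 for 1427650_a_at and 0.881 for 1440878_at. The annotation used here does not tie a probe set to the distal or the proximal promoter whose sequences stand above. Cbfb, which stabilises Runx1 on DNA, measured 11.44 and 11.74 in MSI2-inducible arrays, against 12.03, 11.81 and 12.02 in control arrays. Its MSI2-inducible arrays were below all controls, and its difference was -0.37 (SE 0.19, limma adjusted p 0.911).

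By their leading probe sets, Myb and Erg were the steadiest of the factors. Myb measured 12.46 and 12.60 in MSI2-inducible arrays, against 12.53, 12.47 and 12.53 in control arrays. All 5 arrays lay within 0.14 of each other, and the difference was 0.02 (SE 0.16, 95% interval -0.38 to 0.42, limma adjusted p 0.995). Of its other probe sets, one differed by 0.06 with overlap. The dimmest measured 10.41 and 10.38 in MSI2-inducible arrays, against 10.15, 9.75 and 10.37 in control arrays, a difference of 0.30 with no overlap but with nearest values of 10.38 and 10.37. Erg measured 12.02 and 12.43 in MSI2-inducible arrays, against 12.12, 12.44 and 12.35 in control arrays. The groups overlapped, with a difference of -0.08 (SE 0.21, 95% interval -0.59 to 0.44, limma adjusted p 0.982), and its second probe set differed by 0.04. Fli1, the ETS factor closest to Erg, differed by -0.11.

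**Figure D2:**
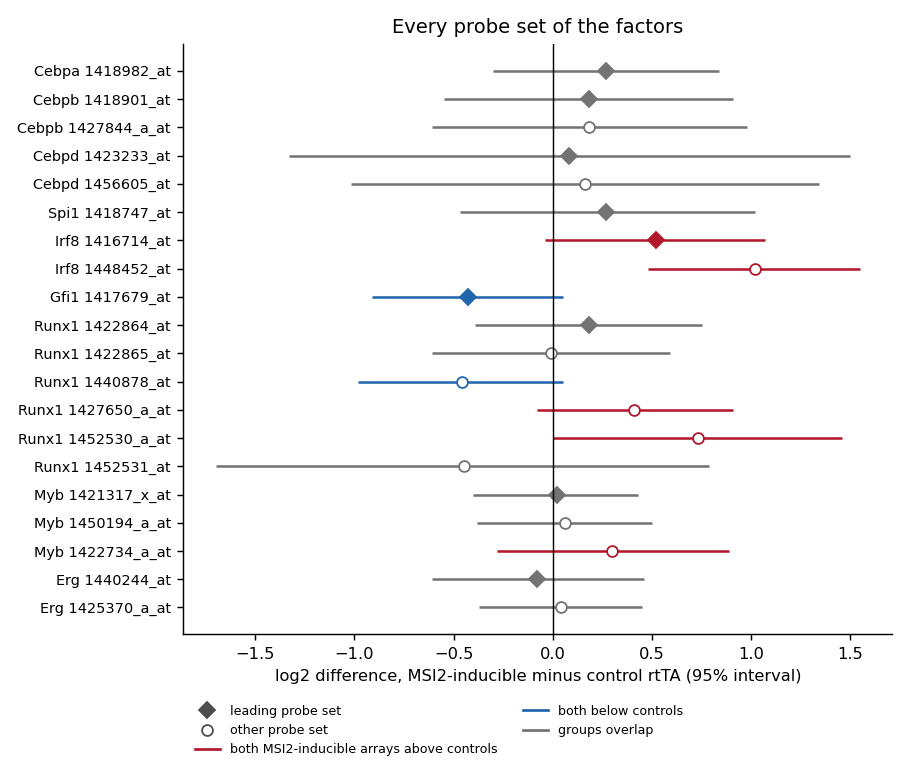
Log2 difference of each of the 20 probe sets, MSI2-inducible minus control rtTA (x axis), with its 95% limma interval; diamonds are leading probe sets and open circles the others. Red marks MSI2-inducible arrays above all controls (5 probe sets), blue below all controls (2), and grey overlap. The second Irf8 probe set has the largest difference of the 20, at 1.02, and the Runx1 probe sets lie on both sides of 0.

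Over the 20 probe sets, 15 differences were above 0 and 5 below. Both MSI2-inducible arrays were above all controls in 5 probe sets (9.26% of all probe sets on the array) and below all controls in 2 (9.66%). These 7 of 20 compare with 18.9% of all probe sets. Of the 7, 3 are of Runx1 and 2 of Irf8, and probe sets of 1 gene are not independent. No probe set of the factors passed limma's test adjusted over probe sets, where 0.00444% of all did.

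The C/EBP factors, PU.1 and Irf8 were all highest in MSI2-inducible replicate 1, and Gfi1, Myb and Erg lowest there, by leading probe sets. Against the control mean that array stood at 1.0 for Cebpd, 0.68 for Irf8, 0.54 for Spi1, 0.53 for Cebpb and 0.51 for Cebpa. Replicate 2 stood at -0.83, 0.35, 0.00, -0.16 and 0.03 for the same genes. The sum of mature neutrophil markers was also highest in MSI2-inducible replicate 1, and it was lowest in replicate 2. By leading probe sets, only Cebpd of the factors had both the same highest and the same lowest array. The second probe sets of Cebpd and Cebpb had the same highest and lowest arrays too. Control replicate 3 was lowest for Cebpa, Cebpb, Spi1 and Irf8, but not for the sum of these markers. Summed over 10 measured of 12 markers, their linear intensity was 63583 and 11802 in MSI2-inducible arrays, against 26837, 14303 and 26847 in control arrays. The granule peptide gene Camp lay at 13.15 and 10.36 in MSI2-inducible arrays, against 11.75, 11.02 and 11.69 in control arrays. Mmp8, Mmp9 and Cxcr2 had means under the median of all probe sets. Stem and progenitor markers summed to 10044 and 13308 in MSI2-inducible arrays, against 12865, 12805 and 13757 in control arrays, over 10 measured of 12 and with 0 under the median of all probe sets. Of these 10, 8 differed below 0 and 2 above. In 3, both MSI2-inducible arrays were below all controls (9.39% of all genes), and in 0 above (9.27%). At an unadjusted limma p under 0.05 there were 2 lower (2.77% of all genes) and 0 higher (2.87%), and 0 passed after adjustment. Erythroid markers summed to 16432 and 13983 in MSI2-inducible arrays, against 11944, 11082 and 11756 in control arrays, over 10 measured of 12, with Rhag under the median of all probe sets. In 3 smaller lists the sums also did not overlap between the groups. Megakaryocyte markers (8 of 8) summed to 887 and 1110 in MSI2-inducible arrays, against 1958, 1594 and 1607 in control arrays, with Gp1bb, Ppbp, Treml1 and Gp6 under that median. Endothelial and stromal markers (8 of 8) summed to 359 and 631 in MSI2-inducible arrays, against 804, 1030 and 851 in control arrays, with Cdh5, Kdr, Col1a1, Col1a2 and Lepr under the median of all probe sets. B cell markers (7 of 8) summed to 1051 and 721 in MSI2-inducible arrays, against 434, 359 and 594 in control arrays, with Cd79a, Ms4a1, Pax5, Ebf1 and Blnk under it. The brightest, Vpreb1, lay at 9.03 and 8.87 in MSI2-inducible arrays, against 7.24, 4.6 and 8.36 in control arrays, and weighs most in that sum. The B cell list's median against the control mean overlapped, at 0.74 and -0.05 in MSI2-inducible arrays, against 0.03, 0.03 and -0.09 in control arrays. Sums overlapped for T and NK cell markers (7 of 8), at 738 and 613 in MSI2-inducible arrays, against 1129, 628 and 807 in control arrays. They also overlapped for mast cell, basophil and eosinophil markers (7 of 8), at 1730 and 2003 in MSI2-inducible arrays, against 2920, 1364 and 2281 in control arrays. The part of other cells in the values of the factors was not tested.

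**Figure D3:**
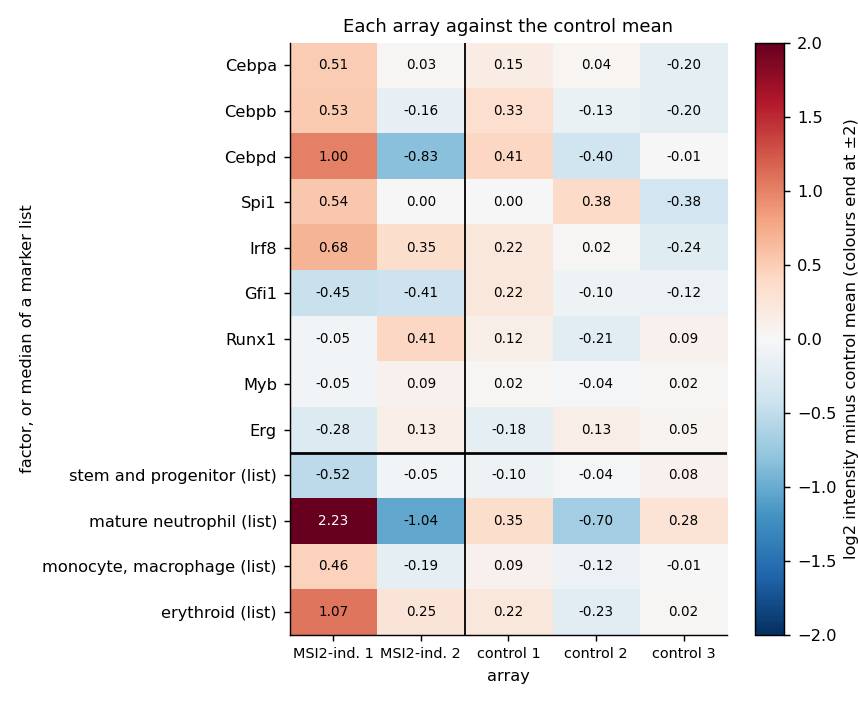
Log2 intensity of each factor in each array minus its control mean (colour and printed value), with the median over 4 marker lists below the line. MSI2-inducible arrays are left of the vertical line. MSI2-inducible replicate 1 is at 1.0 for Cebpd and 2.23 for mature neutrophil markers, where replicate 2 is at -0.83 and -1.04; Gfi1 is at -0.45 and -0.41.

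Monocyte and macrophage markers, which bear on Irf8, summed to 2162 and 1291 in MSI2-inducible arrays, against 1741, 1207 and 1544 in control arrays, over 11 measured of 12. Of these, 7 had means under the median of all probe sets (Cd14, Fcgr1, Adgre1, Mrc1, C1qa, C1qc and Cx3cr1). The chemokine receptor Ccr2 lay at 8.50 and 8.09 in MSI2-inducible arrays, against 6.78, 6.72 and 6.38 in control arrays. The groups did not overlap, with a difference of 1.67 (limma adjusted p 0.226). Another monocyte gene, Ms4a6c, differed by 0.06.

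Relatives of the factors in the same families showed no call, with 0 of 18 measured (of 20) past limma's test in either direction (0.0220% of all genes). At an unadjusted p under 0.05 there were also 0, against 5.64% of all genes. Their median difference was 0.00, with 9 above 0 and 9 below. Ddit3, a C/EBP family member of the stress response, measured 9.01 and 8.87 in MSI2-inducible arrays, against 8.69, 8.61 and 8.45 in control arrays, a difference of 0.35. Irf1, an interferon-induced relative of Irf8, differed by 0.18. Both were above all controls in both MSI2-inducible arrays (9.27% of all genes), and Cbfb and Runx1t1 (-0.28) were below all controls (9.39%). These 2 higher and 2 lower of 18 were the only relatives without overlap, where 18.7% of all genes did not overlap in either direction. Every Runx1t1 value was under 5.57, the median of all probe sets.

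Partners, cofactors and antagonists numbered 25 measured of 26, and 0 passed limma's test. At an unadjusted p under 0.05 there were 3 higher (2.87% of all genes) and 0 lower (2.77%), and the median difference was 0.02. The 3 were Egr2, Klf4 and Egr1, factors that act with or after PU.1 in macrophage differentiation and are also immediate early genes. The list was chosen with earlier results of these data known, so its counts beside the shares of all genes do not test it. Egr2 measured 6.84 and 6.61 in MSI2-inducible arrays, against 4.39, 4.42 and 4.86 in control arrays, a difference of 2.17 (SE 0.22, limma adjusted p 0.128). Its control values were all under 5.57, so the size of that difference is uncertain. Klf4 measured 9.35 and 8.87 in MSI2-inducible arrays, against 7.38, 8.22 and 7.02 in control arrays, a difference of 1.57 (SE 0.38, limma adjusted p 0.679). Egr1 measured 11.57 and 11.50 in MSI2-inducible arrays, against 10.17, 11.10 and 10.23 in control arrays, a difference of 1.04 (SE 0.32, limma adjusted p 0.870). In each, both MSI2-inducible arrays stood above all controls. Of the 25 partners, 6 were above all controls in both arrays (9.27% of all genes) and 3 below (9.39%). The other 3 higher ones, Jun (0.50), Id2 (0.62) and Ikzf1 (0.08), are named here after their values were seen. Control replicate 2 was the highest control for Klf4 and Egr1.

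Of the 3 partners below all controls, Gata1, the erythroid factor that antagonises PU.1, measured 6.91 and 6.85 in MSI2-inducible arrays, against 7.61, 7.52 and 7.09 in control arrays, a difference of -0.53 (limma adjusted p 0.886). Gata1 is also in the erythroid list, where 8 of 10 measured markers differed above 0. Trib3 differed by -0.67 and the stem cell factor Lyl1 by -0.28. The pseudokinases Trib1 and Trib2 direct C/EBP alpha to degradation. Trib1 measured 5.78 and 6.51 in MSI2-inducible arrays, against 5.27, 6.05 and 5.19 in control arrays, a difference of 0.64 with overlap. Trib2 measured 5.0 and 7.01 in MSI2-inducible arrays, against 5.86, 5.93 and 5.87 in control arrays. Its MSI2-inducible arrays stood on opposite sides of tightly placed controls, so the difference of 0.12 (SE 0.56) describes neither. The value of 5.0 for Trib2 was also under 5.57.

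Targets of the factors numbered 24 measured of 25, with 0 past limma's test (0.0220% of all genes). At an unadjusted p under 0.05 there were also 0, against 5.64% of all genes. Their median difference was 0.11, with 20 above 0 and 4 below. Without MSI2-inducible replicate 1 the median was -0.30, with 6 above 0 and 18 below, and without replicate 2 it was 0.64, with 21 above and 3 below. Of the targets, 4 are also in the mature neutrophil list, 2 in the monocyte and macrophage list and 1 (Kit) in the stem and progenitor list. Of the 24 targets, 1 was above all controls in both MSI2-inducible arrays (9.27% of all genes) and 0 below (9.39%). That 1 was Csf2rb, the shared beta chain of cytokine receptors, at 8.16 and 8.35, against 7.83, 8.01 and 8.15 in control arrays. Its nearest values were 8.16 and 8.15. Csf3r, the G-CSF receptor driven by C/EBP alpha and PU.1, measured 9.23 and 7.98 in MSI2-inducible arrays, against 7.94, 7.47 and 7.98 in control arrays, a difference of 0.81 (SE 0.40, limma adjusted p 0.911). Replicate 1 alone stood apart. Csf1r, the M-CSF receptor, differed by 0.03.

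Elane and Ltf differed widely between arrays of the same group, and Mpo did so far less. Mpo, the primary granule peroxidase, measured 13.18 and 13.03 in MSI2-inducible arrays, against 13.21, 12.81 and 13.12 in control arrays. Elane, the neutrophil elastase, measured 11.74 and 9.94 in MSI2-inducible arrays, against 11.83, 10.09 and 11.18 in control arrays. Ltf, the secondary granule lactoferrin that requires C/EBP epsilon, measured 12.86 and 9.13 in MSI2-inducible arrays, against 10.75, 9.60 and 10.80 in control arrays. All 3 overlapped between the groups. The Myb targets Kit, Bcl2 and Myc differed by -0.25, -0.14 and 0.05, each with overlap.

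**Figure D4:**
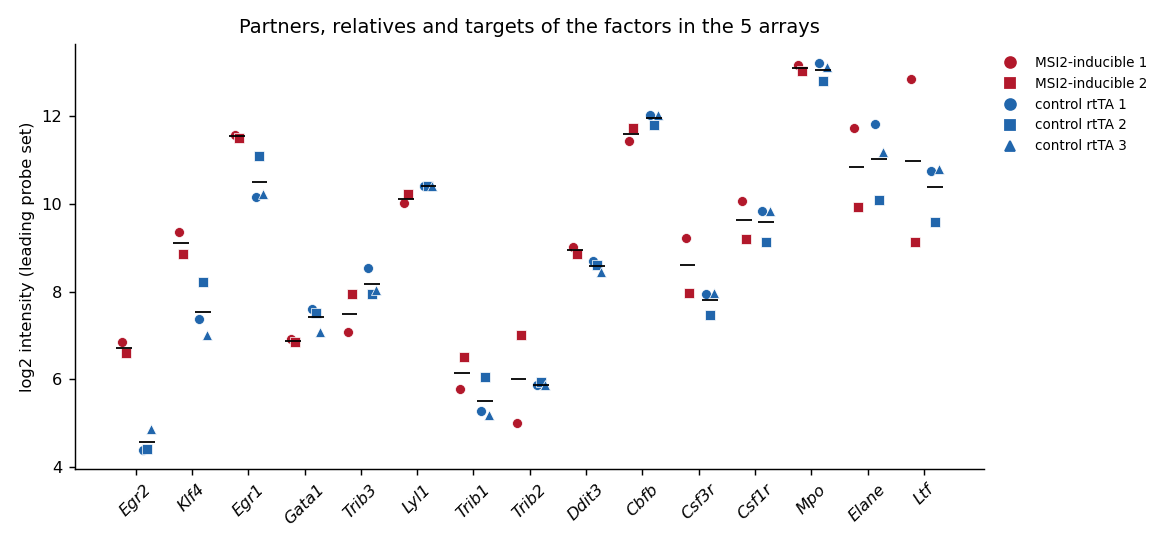
Log2 intensity (y axis) of named partners, relatives and targets in the 2 MSI2-inducible arrays (red) and the 3 control rtTA arrays (blue); marker shapes give the replicate number and black lines the group means. Egr2, Klf4 and Egr1 are above all controls in both MSI2-inducible arrays, Trib2 stands on either side of them at 5.0 and 7.01, and Ltf spans 3.73 between the MSI2-inducible arrays.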

How the data were processed

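Expression was measured on Affymetrix whole-genome mouse arrays in 2 MSI2-inducible and 3 control samples. RNA was amplified linearly before labelling, per the labels' protocols. The file the authors deposited holds linear probe set intensities that they had normalized between arrays. The submitters' processing notes name RMA, affy and R 2.11.0. How the values returned to a linear scale is not stated. Array medians lay between 46.4 and 48.3. Here log2 was taken with no pseudocount. Of 45101 probe sets, 64 were controls, 34945 had 1 symbol, 932 had several and 9160 were unnamed here. Symbols were updated by Entrez ID (34741 matched, GRCm38.p6 table). The values carry no genome build.

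Each gene took its brightest probe set. The comparison used limma 3.58.1 (lmFit, eBayes, group only; R 4.3.3), two-sided p adjusted by Benjamini-Hochberg over 18193 genes, threshold 0.05. Probe sets other than the leading one were fitted with all 45037 non-control probe sets. The fit was tested on simulated data.

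The members and lists were chosen with earlier results of these data known. Named were all members, and from each list of relatives, partners and targets up to 3 genes in each direction with the smallest p among those whose arrays did not overlap. Partners tied to a member by role were named whatever their result, and up to 3 of the brightest genes of a marker list. Genes like a member were the 3 nearest by root mean square distance. Alternatives covered gene value, low values, pseudocount, normalization, variance model, array weights, replicate block, left-out arrays and threshold. Figures were drawn with matplotlib 3.10.9. The number of arrays limits the precision.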

Additional observations from a re-analysis of the deposited data

How the results depend on the processing

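The counts of called factors, relatives, partners and targets were 0 in limma under all 15 alternatives to the gene value, filter, scaling, variance model or arrays and at an adjusted p of 0.10. At an unadjusted p under 0.05 they were 0, 0, 3 and 0 with all arrays. The main fit called 4 of all 18193 genes, and the fit with a pseudocount of 16 called 1 higher and 0 lower. With so few calls, a 0 for these lists says little about stability under any setting. Leaving out any 1 array (a lone MSI2-inducible array was taken to vary as the controls do) or using replicate number as a block called 0 of all 18193 genes, so the 0 for these lists says nothing about stability there. There are 2 same-numbered pairs, the labels give no pairing, and deviations within the pairs correlated at 0.134 and 0.099 over genes. Of 135 alternative values for single factors, 9 turned direction, in 5 factors, none of them past the test. Some settings could not turn a sign. Leaving out low values, the trend and robust variance model and adjusting over probe sets left each difference unchanged. Averaging probe sets could not move Cebpa, Spi1 and Gfi1, which have 1 each. The replicate block repeated the values without control replicate 3. Cebpa, Spi1, Irf8 and Gfi1 kept their sign in all 15, though Spi1 was at 0.001 and Cebpa at 0.028 without MSI2-inducible replicate 1. That count therefore overstates how far their signs were tested. The lowest adjusted p was 0.408. With 1 array left out, Cebpa ranged from 0.028 to 0.514, Spi1 from 0.001 to 0.541, Irf8 from 0.35 to 0.68, Gfi1 from -0.49 to -0.32, Cebpb from -0.16 to 0.53, Cebpd from -0.83 to 1.0, Erg from -0.28 to 0.13, Myb from -0.051 to 0.086 and Runx1 from -0.05 to 0.41. The mean of both Irf8 probe sets differed by 0.77. Cebpd was at -0.01 with array weights, and -0.83 without MSI2-inducible replicate 1 and -0.115 without control replicate 2. Myb was at -0.005 with quantile normalization once more, -0.051 without MSI2-inducible replicate 2 and -0.004 without control replicate 2. Cebpb (-0.162) and Erg (0.13) turned without MSI2-inducible replicate 1, and Runx1 (-0.051) without MSI2-inducible replicate 2. The cause was not tested. Medians of the lists without each array were computed after the results were seen. The median of the targets turned to -0.303 without MSI2-inducible replicate 1 (left-out arrays -0.303 to 0.644), and that of the relatives, 0.00 with all arrays, lay between -0.023 and 0.063. Low signal limits Irf4, Spib, Runx1t1 and Egr2, and in some arrays Trib1, Trib2, Sowahc and Xdh.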
